A study of Mus musculus with 5 samples.

Results

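The clustered protocadherins are neuronal adhesion proteins encoded by 3 neighbouring gene clusters, alpha, beta and gamma, and they were compared here between ribosome-bound RNA of mouse cerebral cortex and dentate gyrus. Members were chosen by gene symbol alone (Pcdha, Pcdhb, Pcdhga, Pcdhgb, Pcdhgc or Pcdhac followed by a number), which found 57 of the 32531 gene symbols counted. Of these, 14 belonged to the alpha cluster (12 Pcdha genes with Pcdhac1 and Pcdhac2), 21 to the beta cluster and 22 to the gamma cluster (12 Pcdhga, 7 Pcdhgb and 3 Pcdhgc genes). Pcdhb21 was not analysed here. In the RefSeq annotation of build GRCm38 all 57 lay on chromosome 18, the alpha cluster at 36930285 to 37188897, the beta cluster at 37264998 to 37521419 and the gamma cluster at 37661775 to 37841873. One gamma member, Pcdhgb8, is annotated there as a transcribed pseudogene.

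Each clustered protocadherin has a large variable exon with its own promoter, which encodes the cadherin repeats, the membrane span and part of the tail. Alpha and gamma variable exons are spliced to constant exons shared by the whole cluster, whereas a beta gene is a single exon with no shared tail. A neuron transcribes a small, partly random set of the alternate isoforms, chosen by CTCF- and cohesin-dependent contact between promoters and distant enhancers, and the proteins bind like to like, which lets a neuron tell its own branches from those of others. The C-type isoforms Pcdhac1, Pcdhac2, Pcdhgc3, Pcdhgc4 and Pcdhgc5 are less random and are used in a manner set more by cell type.

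The study profiled adult mice of the Rbp4-Cre (KL100) line that also carried Rosa26-LSL-EGFP/Rpl10a, an EGFP fusion of ribosomal protein L10a that Cre switches on, with no treatment. Tissue was the only difference between the groups, 2 libraries of cerebral cortex and 3 of dentate gyrus, and all 5 were anti-EGFP immunopurified fractions (translating ribosome affinity purification, TRAP, which enriches the RNA of cells that express Cre). Unpurified input or untagged controls were not analysed here, so the values are levels in the pulled-down RNA and not enrichment. Whether the replicates are separate animals is not stated in the labels, so p-values reflect the spread of these 5 libraries alone, and that spread may be technical.

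Gene totals ran from 22600963 to 36837908 reads per library. Summed CPM (gene reads divided by the scaled library total and multiplied by 1000000) of 5 granule cell markers ran from 3063 to 3487 in dentate gyrus against 219.6 to 228.4 in cortex, and those of 8 cortical projection neuron markers from 1579 to 1694 in cortex against 148.4 to 295.1 in dentate gyrus. All 5 and all 8 passed the test in those directions, so the labelled tissues carried their defining markers. Summed markers of interneurons were 864.7 to 885.6 CPM in cortex and 181.8 to 215.5 in dentate gyrus (4 of 6 higher in cortex, 1 higher in dentate gyrus), and those of astrocytes 141.6 to 164.6 and 51.6 to 88.5 (3 of 7 higher in cortex). Oligodendrocyte markers summed to 220.7 to 293.1 CPM in cortex and 160.6 to 221.8 in dentate gyrus (1 of 6 higher in cortex), Cajal-Retzius markers to 39.1 to 39.4 and 9.81 to 21.7 (1 of 4 higher in cortex), and choroid plexus markers to 1.08 to 10.04 and 8.55 to 32.1 (1 of 4 higher in dentate gyrus). No marker of oligodendrocyte precursors (14.3 to 36.7 CPM over all libraries), microglia (0.910 to 8.73), vessels (8.80 to 23.6) or serotonergic neurons (9.06 to 16.3) passed in either direction. Among defining markers, C1qa of microglia, Folr1 of choroid plexus and Slc6a4 of serotonergic neurons had no reads in any library. Some sums rested largely on 1 gene, named after its values were seen. Kl had means of 1.37 CPM in cortex and 20.8 in dentate gyrus. Ttr (3.55 and 0.320) and Kcnj13 (0.645 and 0.222) went the other way, uncalled. Reln had 36.7 and 15.6, Slc18a2 11.3 and 15.9, and Aldoc of astrocytes 107.7 and 19.96. Gfap, Aqp4, Slc1a3 and Gja1 were fitted higher in dentate gyrus, uncalled, and the astrocyte list had a median log2 fold change of 0.61.

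A library in each tissue stood apart from the rest in a few genes. Over all genes tested the libraries of a tissue were alike, with Spearman's rho of 0.955 for the cortex pair and 0.953 to 0.957 for dentate gyrus pairs. Cortex replicate 1 held Car8 at 411.1 CPM against 1.44 in cortex replicate 2. The transcription factor genes Ebf1 (19.0), Ebf2 (36.8) and Ebf3 (22.6) were high there too, against 2.05 to 2.67 in replicate 2. Dentate gyrus replicate 2 held Dcn at 114.3 CPM against 1.71 and 10.5 in the other two, and Dlk1 at 83.3 against 0.110 and 12.99. The 6 genes were picked with their values in view. Results below that change without those libraries are given both ways.

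The deposited table treats each isoform as a gene, which decides what its value counts. The stretch of a member that no other isoform of its cluster uses had a median length of 2494 bases in the alpha cluster, 3438 in the beta cluster and 2607.5 in the gamma cluster. Reads in the constant exons of alpha and gamma match many symbols, and the class of reads assigned to more than 1 gene held 1.81 to 1.87% of reads per library. Alpha and gamma values therefore chiefly reflect the variable exon and beta values the whole gene, so totals are not set against each other between clusters. Near-identical sequence within the clusters also limits single members: of the 50-base stretches of a member's own exon, a median of 14.0% occurred in another member as well in the alpha cluster (12 members matched, at most 23.4% in Pcdha7), 3.35% in the beta cluster and 1.84% in the gamma cluster (at most 19.7%, in Pcdhga1). Reads in such stretches can match several places and be set aside.

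**Figure D1:**
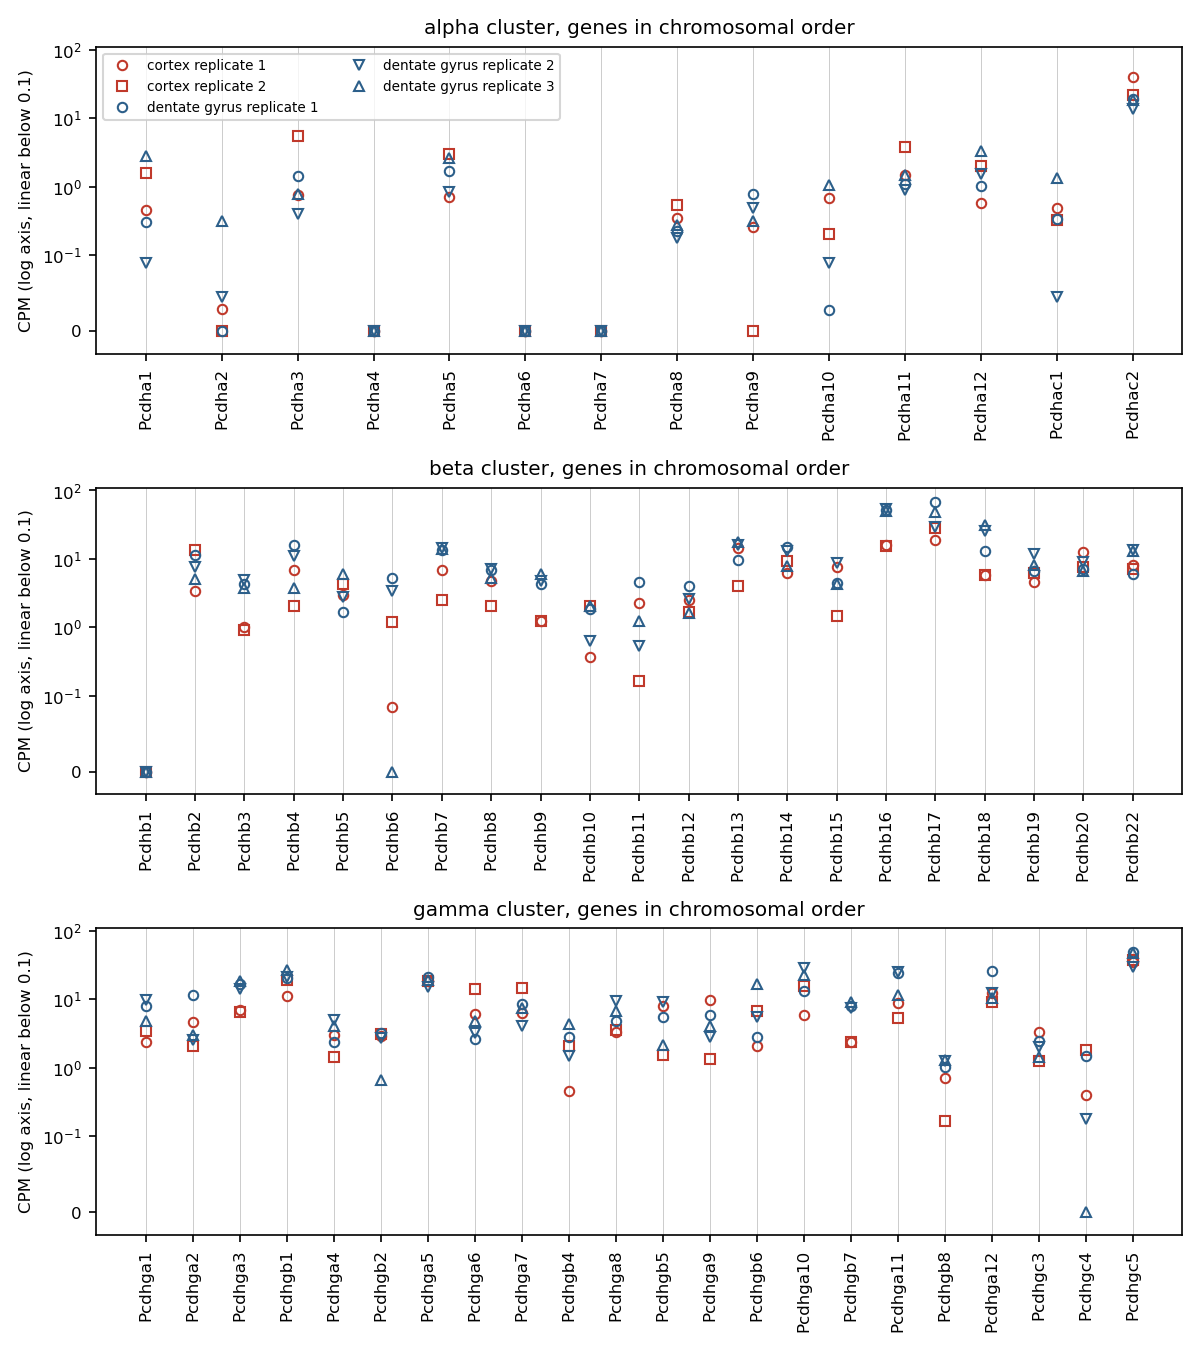
CPM of the 57 clustered protocadherins in each library (vertical axis, logarithmic and linear below 0.1), with genes in chromosomal order within the alpha, beta and gamma clusters; red marks are the 2 cortex libraries and blue marks the 3 dentate gyrus libraries. Pcdhac2 stands above every other alpha gene in all 5 libraries, Pcdhb16 and Pcdhb17 lead the beta cluster in dentate gyrus, Pcdhgc5 leads the gamma cluster, and Pcdha4, Pcdha6, Pcdha7 and Pcdhb1 lie at 0.

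Nearly the whole repertoire was found in ribosome-bound RNA of both tissues. Members with at least 1 read numbered 53 and 51 for cortex and 52, 53 and 51 for dentate gyrus, each in replicate order. With every library thinned to the smallest gene total, 22600963 reads, the expected numbers were 51 to 53. Pcdha4, Pcdha6, Pcdha7 and Pcdhb1 had no reads in any library. For Pcdhb1 a count of 0 allows up to 0.0814 to 0.133 CPM per library (3 counts, counting error only). The zeros of Pcdha4, Pcdha6 and Pcdha7 cannot be read as lack of expression, since RefSeq places a read-through symbol at the same variable exon of each (Gm37013, Pcdha6-g and Pcdha7-g), those symbols were at 0 as well, and a read in an exon shared by a pair of symbols may be left unassigned.

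In the alpha cluster a single C-type isoform held most of the counted signal in both tissues. Pcdhac2, the isoform that serotonergic axons need for their even spread, made up 85.3 and 50.9% of the summed level per kilobase of own exon in the cortex libraries, and 69.6, 70.5 and 51.3% in those of dentate gyrus. These shares take Pcdha4, Pcdha6 and Pcdha7 as 0, although their zeros cannot be read as lack of expression. Reads of the alternate Pcdha genes can also be set aside for shared stretches, whereas Pcdhac2 had no such stretch. The shares may therefore be too high. In CPM, here and below in replicate order, Pcdhac2 stood at 40.5 and 21.5 in cortex and at 19.3, 13.5 and 18.4 in dentate gyrus. Both cortex libraries lay above all dentate gyrus libraries, but the difference did not pass the test (log2 fold change -0.86 in dentate gyrus against cortex, SE 0.35, edgeR adjusted p = 0.116), and with cortex replicate 1 and dentate gyrus replicate 2 both left out it was -0.18 (adjusted p = 0.849). The other C-type gene, Pcdhac1, was near the floor at 0.484 and 0.328 CPM in cortex and 0.331, 0.0444 and 1.33 in dentate gyrus, and the groups overlapped.

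The alternate alpha isoforms were low and uneven between libraries. With Pcdha4, Pcdha6 and Pcdha7 entered as 0, their median level was 0.177 CPM per kilobase in cortex and 0.184 in dentate gyrus. Pcdhac2 had 10.2 and 5.64. Pcdha3, second to Pcdhac2 by the mean CPM of the tissues, stood at 0.741 and 5.45 CPM in the cortex libraries and 1.41, 0.400 and 0.783 in dentate gyrus, with the single high value in cortex replicate 2, on which that rank rests. In dentate gyrus its mean (0.863 CPM) lay below those of Pcdha12 (1.94), Pcdha5 (1.70), Pcdha11 (1.15) and Pcdha1 (1.06). Pcdha11 followed at 1.45 and 3.73 in cortex and 1.08, 0.888 and 1.49 in dentate gyrus, also overlapping. Neither passed the test (log2 fold changes of -1.83, SE 1.13, and -1.17, SE 0.97; edgeR adjusted p = 0.303 and 0.460). Summed over all 14 members, the alpha cluster reached 46.2 and 38.3 CPM in cortex and 26.2, 18.1 and 32.6 in dentate gyrus. Mean totals were 42.3 ± 5.60 (SD, n = 2) and 25.6 ± 7.28 (SD, n = 3), a log2 ratio of -0.72, or -0.38 with cortex replicate 1 and dentate gyrus replicate 2 both left out. Without Pcdhac2 the totals of the 2 tissues overlapped (5.73 and 16.8 CPM in cortex, 6.84, 4.57 and 14.2 in dentate gyrus), so the separation of the alpha totals rested on that gene.

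Across the beta cluster the dentate gyrus libraries carried about double the cortical level. The 21 members summed to 125.8 and 117.0 CPM in cortex and to 254.3, 240.2 and 235.5 in dentate gyrus, with means of 121.4 ± 6.25 (SD, n = 2) and 243.3 ± 9.80 (SD, n = 3). The tissues did not overlap, and the gap was several times the spread within either tissue (log2 ratio 1.003). The within-tissue variances of the log2 totals, summed over both tissues, had a square root of 0.09. In bulk RNA of this kind, more or fewer cells of a type and more or less RNA per cell cannot be told apart. Granule cell, projection neuron and interneuron markers moved with tissue as given above, and their part in the cluster totals was not tested.

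Pcdhb16, Pcdhb17 and Pcdhb18, neighbours towards the gamma end of the cluster, carried much of the beta signal. Pcdhb16 stood at 15.8 and 15.6 CPM in cortex and at 51.8, 53.8 and 49.97 in dentate gyrus. All 3 dentate gyrus values were over 3 times the cortical ones with almost no spread inside a tissue, and Pcdhb16 was called higher in dentate gyrus (log2 fold change 1.73, SE 0.24, edgeR adjusted p = 0.000824). Pcdhb18 stood at 5.81 and 5.78 CPM in cortex and at 13.2, 25.3 and 31.4 in dentate gyrus, again without overlap, and was called as well (log2 fold change 2.004, SE 0.45, edgeR adjusted p = 0.0107). That call was lost without cortex replicate 1 (adjusted p = 0.0588) and without cortex replicate 2 (0.0642). Pcdhb17 had 18.7 and 28.5 CPM in cortex and 66.9, 29.1 and 47.8 in dentate gyrus, where replicate 2 lay just above the higher cortex library, and it did not pass (log2 fold change 1.02, SE 0.37, edgeR adjusted p = 0.0776). It passed without dentate gyrus replicate 2 (adjusted p = 0.0192), with DESeq2 (0.0313), with limma voom (0.0456) and with no filter on low counts (0.00413). Left out together, the 3 genes did not account for the whole difference: the other 18 beta members summed to 76.3 ± 13.1 CPM in cortex (SD, n = 2) and 120.3 ± 12.98 in dentate gyrus (SD, n = 3), with no overlap and a log2 ratio of 0.66.

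Beta genes towards the gamma end had higher levels per kilobase in both tissues. Spearman's rho between gene order and CPM per kilobase was 0.418 over the 20 detected beta genes, which share libraries, depth and neighbouring promoters, against -0.007 over the 22 gamma genes and 0.282 over 11 alpha genes. The 11 detected beta genes before Pcdhb13 had a median of 0.690 CPM per kilobase in cortex and 1.14 in dentate gyrus. From Pcdhb13 onward the 9 genes had medians of 2.47 and 3.56. The boundary was set with the values in view. By tissue, the beta rho was 0.424 in cortex and 0.367 in dentate gyrus. These levels used RefSeq lengths. The longest GENCODE transcript exceeds them for some beta genes, as for Pcdhb14 (8646 stretches of 50 bases against 3438 bases). The lengths used in the authors' counting are not known, and the dependence on length was not tested.

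The gamma cluster was also higher in dentate gyrus, by less. Its 22 members summed to 155.4 and 172.5 CPM in cortex and to 242.8, 214.2 and 228.7 in dentate gyrus (means 163.9 ± 12.1, SD, n = 2, and 228.6 ± 14.3, SD, n = 3; log2 ratio 0.48), without overlap. Pcdhga genes summed to 88.3 and 96.5 CPM in cortex and 145.6, 133.6 and 118.3 in dentate gyrus. Pcdhgb genes summed to 27.9 and 35.1 in cortex and 44.1, 48.8 and 61.8 in dentate gyrus. The C-type genes were the exception: at 39.2 and 40.8 CPM in cortex and 53.2, 31.8 and 48.7 in dentate gyrus, their totals overlapped (log2 ratio 0.15). That overlap rested on dentate gyrus replicate 2, which stood apart above. Without it, both dentate gyrus totals lay above both cortex totals.

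**Figure D2:**
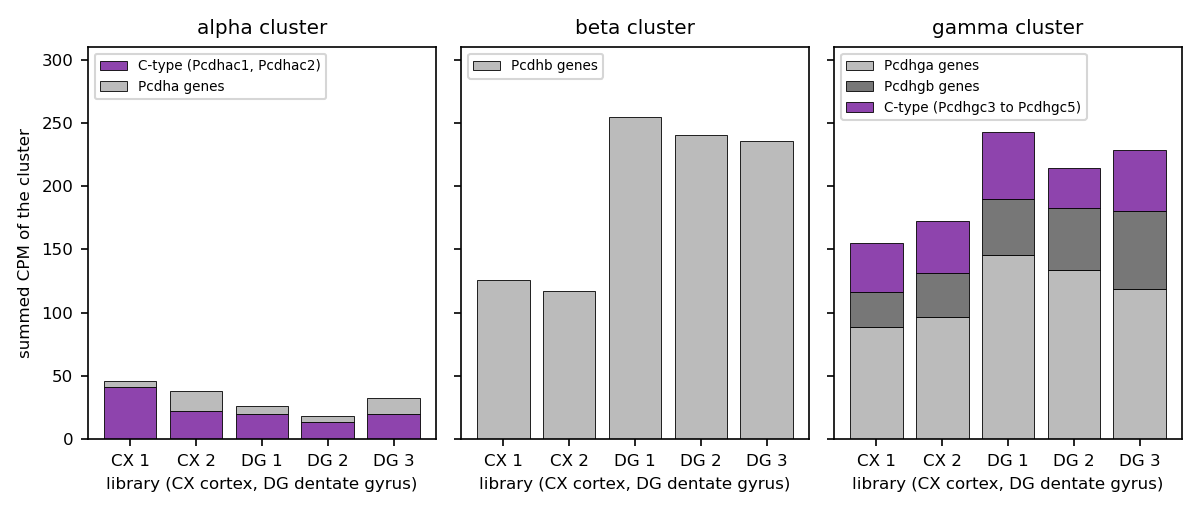
Summed CPM of the alpha, beta and gamma clusters in each library (CX 1 and 2, cortex replicates; DG 1 to 3, dentate gyrus replicates), with each bar split by kind of isoform. Beta bars reach 117.0 to 125.8 in cortex and 235.5 to 254.3 in dentate gyrus, gamma bars 155.4 to 172.5 and 214.2 to 242.8, and alpha bars, mostly Pcdhac2, 38.3 to 46.2 and 18.1 to 32.6.

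Pcdhga3 and Pcdhga11, alternate isoforms that join the shared gamma tail, were the gamma genes called. Pcdhga3 stood at 6.98 and 6.56 CPM in cortex and 16.8, 14.2 and 18.7 in dentate gyrus, with every dentate gyrus library above both cortex libraries (log2 fold change 1.29, SE 0.39, edgeR adjusted p = 0.0409). The call sat close to the threshold and was lost without any 1 of the 5 libraries (adjusted p from 0.0579 to 0.180). Pcdhga11 stood at 8.98 and 5.29 CPM in cortex and 24.2, 25.3 and 11.5 in dentate gyrus, also without overlap although dentate gyrus replicate 3 was much nearer to cortex (log2 fold change 1.51, SE 0.47, edgeR adjusted p = 0.0476). Without cortex replicate 1, cortex replicate 2, dentate gyrus replicate 1 or dentate gyrus replicate 2 its adjusted p was 0.0712, 0.256, 0.113 and 0.121.

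Pcdhgc5, a C-type isoform known to bind GABA-A receptors, had the highest mean level per kilobase of all 57 members in each tissue, 14.0 CPM per kilobase in cortex and 16.0 in dentate gyrus. It stood at 35.5 and 37.8 CPM in cortex and 49.2, 29.6 and 47.2 in dentate gyrus. The groups overlapped, and the difference did not pass (log2 fold change 0.20, SE 0.28, edgeR adjusted p = 0.683). The overlap rested on dentate gyrus replicate 2. Without that library the log2 fold change of Pcdhgc5 was 0.38 (edgeR adjusted p = 0.360). Pcdhgb1 and Pcdhga5 came next in the gamma cluster by the mean CPM of the tissues, although in dentate gyrus alone Pcdhga10 (mean 21.9 CPM) and Pcdhga11 (20.3) lay above Pcdhga5. Pcdhgb1 stood at 11.2 and 19.1 in cortex and 20.4, 21.3 and 27.3 in dentate gyrus, which did not overlap but did not pass either (log2 fold change 0.60, SE 0.35, edgeR adjusted p = 0.278). Pcdhga5 had nearly equal means (18.7 and 18.6 CPM), with 18.5 and 18.8 in cortex and 21.2, 15.5 and 19.1 in dentate gyrus, cortex inside the dentate gyrus range. Here too the low value was that of dentate gyrus replicate 2, without which the log2 fold change was 0.098.

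The remaining C-type gamma isoforms were scarce in both tissues. Pcdhgc3, which binds Axin1 and promotes dendrite arborization, stood at 3.36 and 1.27 CPM in cortex and 2.48, 2.04 and 1.45 in dentate gyrus. Pcdhgc4, the isoform that neurons need for survival during development, stood at 0.399 and 1.80 CPM in cortex and 1.49, 0.178 and 0 in dentate gyrus, where a count of 0 in replicate 3 allows up to 0.117 CPM. Both overlapped between tissues. Of the C-type isoforms, then, Pcdhac2 and Pcdhgc5 were abundant and Pcdhac1, Pcdhgc3 and Pcdhgc4 were low in each tissue.

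Over the whole family, 51 members had enough reads to be tested (9 alpha, 20 beta and 22 gamma). Besides the 4 members with no reads, Pcdha2 and Pcdha8 were too low. At an adjusted p under 0.05 over all 14136 genes tested, 4 of 51 members (7.84%) were called higher in dentate gyrus, where 10.5% of all genes tested were, so calls in that direction were no more frequent than among genes at large. None was called higher in cortex, against 10.8% of all genes tested. At an unadjusted p under 0.05 there were 12 members, of which 10 had higher fitted levels in dentate gyrus and 2 in cortex, against 16.8% and 16.5% of all genes tested. DESeq2 gave an adjusted p to 52 members and called 9 with dentate gyrus higher and 1, Pcdhga6 (named after its values were seen), with cortex higher, where it called 14.0% of all its genes in each direction. Pcdhb16 alone of the 4 was called with cortex replicate 1 and dentate gyrus replicate 2 both left out (edgeR adjusted p = 0.0232). Pcdhb18, Pcdhga3 and Pcdhga11 then had an adjusted p of 0.120, 0.166 and 0.159.

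**Figure D3:**
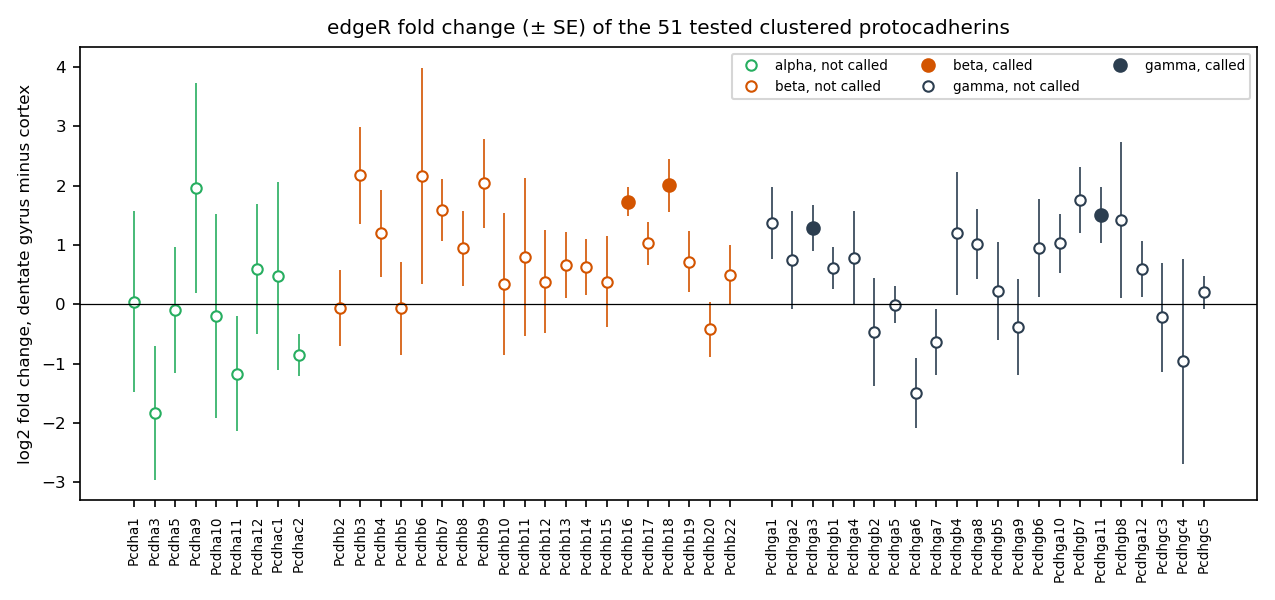
Log2 fold change with its standard error (dentate gyrus minus cortex, edgeR) for the 51 tested members in chromosomal order; filled marks passed an adjusted p under 0.05 over all genes tested. Pcdhb16, Pcdhb18, Pcdhga3 and Pcdhga11 are filled. Above 0 lie 17 of 20 beta, 15 of 22 gamma and 4 of 9 alpha marks, against 50.8% of all genes tested.

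Fitted differences leaned towards dentate gyrus in the beta and gamma clusters. They were above 0 for 17 of 20 beta members (median log2 fold change 0.76), 15 of 22 gamma members (median 0.68) and 4 of 9 alpha members (median -0.10). Over all genes tested, 50.8% were above 0 and the median was 0.02. All 3 dentate gyrus libraries lay above both cortex libraries for 16 of 51 members (31.4%), a layout found in 25.1% of all genes tested. Both cortex libraries lay above all dentate gyrus libraries for 2 of 51 (3.9%), Pcdhac2 and Pcdhga6, a layout found in 25.0% of all genes tested. The 16 comprised 8 beta, 7 gamma and 1 alpha members. Standard errors of the members had a median of 0.74 on the log2 scale, against 0.44 over all genes tested. The members were also less abundant (median 5.22 CPM against 13.6), and standard errors at like abundance were not compared. A member that was not called is not shown to be equal between tissues.

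The coefficient of variation over the 3 dentate gyrus libraries had a median of 37.7% over the 51 tested members, where counting alone gives 7.41%. It ran from 2.71% for Pcdhb7 and 3.65% for Pcdhb16 to 141.4% for Pcdha1 and 147.6% for Pcdha10, genes named as the extremes. Over 6313 tested genes of like abundance, with mean levels of 1.04 to 18.6 CPM, the median was 41.2%. In cortex, 28 of 51 members (54.9%) differed by more than 2-fold between the 2 libraries, against 34.7% of those 6313 genes. Pcdhga9, for one, stood at 9.80 CPM in cortex replicate 1 and 1.35 in replicate 2, and Pcdhgb5 at 8.06 and 1.56. The pair was picked with its values in view.

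Over the members with reads, the order of the isoforms was about as similar across tissues as between the cortex libraries. It was mostly more similar within dentate gyrus, with some overlap. Spearman's rho between libraries over the 53 members with reads was 0.701 for the single cortex pair and 0.799 to 0.902 for dentate gyrus pairs. For pairs across tissues it was 0.704 to 0.840. Over beta members alone it was 0.683 for the cortex pair, 0.621 to 0.890 within dentate gyrus and 0.663 to 0.833 across tissues. Over gamma members alone it was 0.555, 0.755 to 0.861 and 0.587 to 0.856. A narrower range of levels lowers rho. Over the 41 tested members within 1.04 to 18.6 CPM it was 0.448 to 0.818 for pairs from 1 tissue and 0.431 to 0.721 for pairs across tissues. Over the 6313 genes of that range it was 0.746 to 0.782 and 0.476 to 0.540. These are descriptions across genes, which are not independent replicates. The effective number of isoforms is the number of equally abundant isoforms that would give the same concentration of reads. It was 10.3 ± 2.25 in cortex (SD, n = 2) and 8.57 ± 1.23 in dentate gyrus (SD, n = 3) for the beta cluster, 9.96 ± 0.39 and 11.0 ± 0.82 for the gamma cluster, and 2.06 ± 1.07 and 2.14 ± 0.64 for the alpha cluster. The alpha values take Pcdha4, Pcdha6 and Pcdha7 as 0 and may be too low.

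Of 13 genes of CTCF, cohesin and their loaders and releasers, which fold the protocadherin locus, 8 were called with dentate gyrus higher and none with cortex higher (median log2 fold change 0.55), against 10.5% and 10.8% of all genes tested. Leaving out cortex replicate 1 gave 2 calls, cortex replicate 2 gave 4, dentate gyrus replicate 2 gave 5 and either other dentate gyrus library gave 6. There was 1 with cortex replicate 1 and dentate gyrus replicate 2 both left out. Ctcf, which binds the variable promoters and the distant enhancers, stood at 67.9 and 64.4 CPM in cortex and 162.5, 180.6 and 146.9 in dentate gyrus (log2 fold change 1.31, SE 0.17, edgeR adjusted p = 0.000507). Nipbl, which loads cohesin, stood at 111.0 and 118.4 CPM against 182.6, 207.9 and 187.6 (log2 fold change 0.75, edgeR adjusted p = 0.00518). Pds5b, a cohesin regulator, had a log2 fold change of 0.67 (edgeR adjusted p = 0.00745) and Smc3, a core subunit, of 0.52 (0.0123). The tissues did not overlap in any of those 4 genes. Smc1a and Rad21, also core subunits, were not called (log2 fold changes of 0.008 and 0.26, edgeR adjusted p = 0.98 and 0.31). Both were named after their values were seen. Without cortex replicate 1, Pds5b and Smc3 had an adjusted p of 0.0652 and 0.0508, and Smc3 0.103 without cortex replicate 2. With cortex replicate 1 and dentate gyrus replicate 2 both left out, Ctcf was still called (0.0136), and Nipbl, Pds5b and Smc3 were not (0.0941, 0.0888 and 0.107).

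Among 10 tested genes that methylate, demethylate or silence the variable promoters, 1 was called with dentate gyrus higher and 1 with cortex higher (median log2 fold change 0.17), shares near the 10.5% and 10.8% of all genes tested. Tet3, which oxidizes methylcytosine, stood at 91.5 and 84.2 in cortex and 63.8, 56.5 and 44.6 in dentate gyrus (log2 fold change -0.68, SE 0.21, edgeR adjusted p = 0.0466). The Tet3 call was lost without cortex replicate 1, cortex replicate 2, dentate gyrus replicate 2 or dentate gyrus replicate 3 (adjusted p from 0.0696 to 0.211; 0.266 without both libraries that stood apart).

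A list of intracellular partners of clustered protocadherins held 19 genes, not all of them partners of the shared alpha and gamma tails. Of the 19, 8 were called with dentate gyrus higher and 1 with cortex higher (median log2 fold change 0.20), against 10.5% and 10.8% of all genes tested. The 8 became 5 to 7 with 1 library left out. Ptk2b, the kinase PYK2 that the tails inhibit, stood at 343.1 and 265.3 CPM in cortex and 1177, 835.1 and 1069 in dentate gyrus (log2 fold change 1.76, SE 0.17, edgeR adjusted p = 8.97e-05). Some genes of the WAVE complex, which builds branched actin and binds the alpha tail, were called in that direction as well, among them Nckap1 (log2 fold change 0.995, edgeR adjusted p = 5.01e-05), Wasf1 (1.22, 8.89e-05) and Abi1 (1.33, 0.000105). Others of the complex were not called: Wasf2, Wasf3, Cyfip2 and Brk1 had log2 fold changes of 0.16, 0.16, -0.18 and -0.21 (edgeR adjusted p from 0.252 to 0.896). These 4 were named after their values were seen.

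Of 8 tested genes for the processing of protocadherins at the surface, 1 was called with dentate gyrus higher and none with cortex higher (median log2 fold change 0.32). Over all genes tested, 10.5% and 10.8% were called in those directions. With 1 dentate gyrus library left out, 0 to 2 of the 8 were called.

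Of 10 tested genes around the clusters, 1 was called with dentate gyrus higher and 2 with cortex higher (median log2 fold change 0.11), against 10.5% and 10.8% of all genes tested. Taf7, a general transcription factor gene between the beta and gamma clusters, stood at 13.4 and 13.2 CPM in cortex and 8.16, 11.9 and 9.12 in dentate gyrus (log2 fold change -0.46, SE 0.40, edgeR adjusted p = 0.484), and it was chosen for its place. Rell2 stood at 5.78 and 7.75 CPM in cortex and 0.221, 0.799 and 0.0391 in dentate gyrus (log2 fold change -4.27, edgeR adjusted p = 0.0211), a call lost without cortex replicate 1 (0.0685) or replicate 2 (0.118). Fchsd1 stood at 0.769 and 3.24 CPM in cortex and at 0.0552, 0.0444 and 0 in dentate gyrus, under 3 counts in each (edgeR adjusted p = 0.0307). Leaving out cortex replicate 1, cortex replicate 2, dentate gyrus replicate 2 or dentate gyrus replicate 3 ended the Fchsd1 call (adjusted p from 0.0549 to 0.360; 0.124 without both that stood apart).

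Protocadherins outside the clusters, each with 1 promoter region of its own, included fold changes beyond that of any clustered member (at most 2.17 on the log2 scale, Pcdhb3). Of 10 tested, 5 were called with dentate gyrus higher and 2 with cortex higher, with a median log2 fold change of -0.04, against 10.5% and 10.8% of all genes tested. The 5 became 3 without either cortex library, dentate gyrus replicate 1 or dentate gyrus replicate 3. Pcdh20 stood at 7.47 and 7.01 CPM in cortex and 189.8, 225.2 and 193.6 in dentate gyrus (log2 fold change 4.81, SE 0.20, edgeR adjusted p = 1.06e-06). Pcdh19, the gene of an X-linked epilepsy, stood at 86.4 and 87.2 CPM against 321.4, 332.6 and 339.3 (log2 fold change 1.93, SE 0.13, edgeR adjusted p = 1.26e-05). Pcdh17, which acts in presynaptic assembly, had a log2 fold change of 1.51 (edgeR adjusted p = 0.000173). Pcdh10 went the other way, with 238.4 and 299.1 CPM in cortex and 9.98, 34.4 and 23.5 in dentate gyrus (log2 fold change -3.58, SE 0.40, edgeR adjusted p = 0.000216). Pcdh1 was also the 1 gene around the clusters called with dentate gyrus higher, so it counts in both lists. It stood at 285.9 and 261.4 CPM in cortex and 379.5, 327.4 and 443.3 in dentate gyrus (log2 fold change 0.49, SE 0.15, edgeR adjusted p = 0.0430). The Pcdh1 call was lost without cortex replicate 1, cortex replicate 2, dentate gyrus replicate 1 or dentate gyrus replicate 3 (adjusted p from 0.0766 to 0.254; 0.0639 without both that stood apart).

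**Figure D4:**
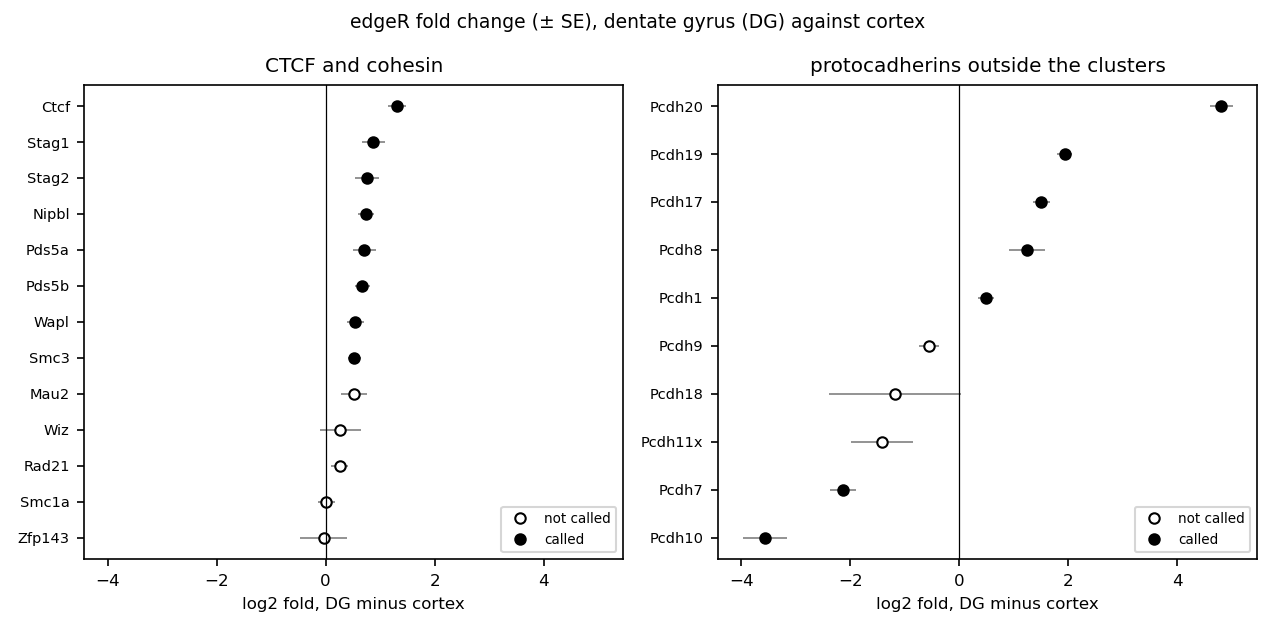
Log2 fold change with its standard error (dentate gyrus minus cortex, edgeR) for 13 genes of CTCF and cohesin and for 10 protocadherins outside the clusters; filled marks passed an adjusted p under 0.05 over all genes tested. Of the CTCF and cohesin genes 8 of 13 are filled, all above 0, and the outside protocadherins run from Pcdh10 at -3.58 to Pcdh20 at 4.81, with 7 of 10 filled.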

How the data were processed

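Ribosome-bound RNA was measured in 2 cerebral cortex and 3 dentate gyrus libraries. The deposited tables hold raw read counts per gene symbol, made by the authors with STAR 2.0.0e and HTSeq on mm10, per the submitters' processing notes. Which annotation, strand setting and overlap mode they used is not given in the sources used here, so reads of overlapping or antisense genes may share a count. Rows without a gene name entered neither totals nor fits: reads with no feature were 10.59 to 14.83% of counted reads, reads matching several places 25.03 to 31.76% and ambiguous reads 1.81 to 1.87%.

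Counts were tested with the quasi-likelihood test of edgeR 4.0.16 (TMM scaling, filterByExpr, tissue as the only term, all 5 libraries, Benjamini-Hochberg adjustment over 14136 genes, threshold 0.05). CPM are TMM-scaled. Cluster totals, shares and effective numbers are values with no test. Positions and beta lengths came from RefSeq (GRCm38), lengths of alpha and gamma variable exons and shared 50-base stretches from GENCODE M21. The fits were tested on simulated data. Named were the 5 C-type isoforms, each member called, the 3 members highest in CPM per cluster and up to 4 called genes per pathway list with the smallest adjusted p; others are said to be chosen otherwise, and some list genes under this rule are not reported here. Members and the 17 gene lists (130 entries, all matched) were chosen with earlier results of these data known. Alternatives were other scalings, filters, a replicate block, robust dispersion, DESeq2 1.42.0, voom of limma 3.58.1 and leaving out libraries.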

Additional observations from a re-analysis of the deposited data

How the results depend on the processing

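Over 14 other settings, the number of members called higher in dentate gyrus (4) was 9 with DESeq2 and 1 to 3 with a library left out; it was 1 with cortex replicate 1 and dentate gyrus replicate 2 both left out, a setting chosen after seeing the data. Where 1 cortex library was left, it was assumed to vary like the other group. Pcdhb16 was called in each of the 14 settings, whereas Pcdhb18 lost its call in 3 and Pcdhga3 and Pcdhga11 in 7 each; Pcdhb17 was called in 4. Members called higher in cortex (0) were 1 with DESeq2. Pathway list genes called higher in dentate gyrus (23) were 11 with both libraries left out and 13 to 19 with 1 left out; those higher in cortex (6) were 3 to 6 with 1 left out. With the replicate number as a block, 3 members and 16 and 4 list genes were called. The labels do not say that same-numbered libraries are paired, and pairing was not assumed. Deviations of same-numbered libraries correlated at -0.011, which cannot decide this, since the deviations of 2 cortex libraries mirror each other. Signs changed only in uncalled genes: Pcdhac1 was -0.38 with voom and -1.48 with the replicate block; Pcdhgc3 was 0.63 with both libraries left out, 0.11 with the block and -0.79 to 0.65 with 1 library left out. With 1 left out, Pcdhgc4 was -1.67 to 0.45, Pcdha3 -2.64 to 0.19 and Pcdhga5 -0.13 to 0.098; Pcdhga5 was also 0.11 with both left out, 0.013 with voom and 0.0015 with no filter on low counts. The cause was not tested. Cluster totals kept their direction under both other scalings and every left-out library, with log2 ratios of -0.93 to -0.38 (alpha), 0.95 to 1.07 (beta) and 0.41 to 0.56 (gamma). At a minimum of 10 counts, a mean of 48.5 members was detected in cortex and 48.0 in dentate gyrus, against 52.0 at 1 count. With 2 cortex libraries and a median standard error of 0.74 on the log2 scale, most members were too imprecise for a difference of 2-fold to be called.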
